A study of Mus musculus with 2 samples.

Results

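Smr3a, Prol1, Odam and Csn3 are 4 secretory calcium-binding phosphoprotein genes that lie close together on mouse chromosome 5. They were taken by symbol out of the 48825 features of 2 single-cell RNA-seq libraries of the adult mouse parotid gland, and all 4 were found in both. The set was chosen by the place of the genes on the chromosome and by their measured levels and IR over control differences in these libraries, so their differences between cell types and conditions are given as a description, with no test.

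The locus arose by repeated gene duplication, and its genes encode secreted, mostly unstructured proteins that are phosphorylated or heavily glycosylated on their way out of the cell. Its best known members are the caseins of milk and the enamel matrix proteins of teeth, and several others are made by the salivary and lacrimal glands. Smr3a (submaxillary gland androgen-regulated protein 3A) is a small salivary protein. Prol1 (proline-rich, lacrimal 1) is a proline-rich protein of mucin type, Odam (odontogenic ameloblast-associated protein) is best known from ameloblasts and from the epithelium that attaches gum to tooth, and Csn3 is kappa-casein, which keeps casein micelles of milk in suspension. The parotid gland is a serous gland in which acinar cells make most of the secreted protein and intercalated and striated ducts carry and modify the saliva, while contractile myoepithelial cells (MECs) surround the acini.

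Parotid glands of wild-type female C3H mice were measured in 2 groups. Irradiated (IR) mice received 6 Gy per day on 5 days, 30 Gy in all, to the head and neck at 6 to 10 weeks of age, and their glands were taken 10 months later. Control mice were not irradiated. Each group is 1 droplet library that pools the glands of 2 mice, and cells were not assigned to mice, so differences between conditions, between mice and between libraries cannot be told apart. All intervals given here are 95% intervals for counting error only.

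The control library held 5550 barcodes with 22707876 unique molecular identifiers (UMIs, each standing for 1 captured transcript) and the IR library held 7793 barcodes with 23890757 UMIs. Of these, 3378 and 5286 cells passed the filters, with medians of 2907.5 and 2461.5 UMIs. The libraries shared 12 barcode sequences, 3 of them among the kept cells. Clusters were rebuilt without the 4 genes and their neighbours and named from marker lists and depth. A cluster with all Etv1+ markers was named Etv1+ before any other name, and its parts were called deep or shallow by median UMI count. Some shallow clusters were left unnamed. Each name therefore stands for a cluster that is like the named type and may differ from the authors' own annotation. The acinar class held 384 control and 387 IR cells, the intercalated duct class 100 and 126, and the striated duct class 91 and 79. Cells with markers of the Etv1+ secretory population fell into 3 classes, called here Etv1+ deep (182 and 141 cells, median 33905 and 18620 UMIs), Etv1+ shallow (64 and 92 cells, median 1019 and 1008.5 UMIs) and Etv1+ with MEC markers (30 and 31 cells). The last class carried all 8 myoepithelial and all 7 intercalated duct markers as well, and the Etv1+ deep class carried acinar markers at 653205 and 688965 CPM (UMIs of a gene in every 1000000 UMIs), close to the 706714 and 739209 CPM of the acinar class. Summed Etv1+ markers stood at 428 and 486 CPM in Etv1+ deep, 4990 and 4006 CPM in Etv1+ shallow and 58.0 and 60.5 CPM in the acinar class. The Etv1+ classes may therefore hold mixtures of cells, and doublets were left in.

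Transcripts of secretory genes were also counted in cells of other types. Summed acinar markers stood at 61125 CPM in control and 62200 CPM in IR B-cells, which should make none of them. Levels of the 4 genes in B-cells are therefore given beside the epithelial levels throughout, as the background measured in these libraries.

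The 4 genes span 443.786 kb in the mouse build GRCm38, all on the forward strand. Odam lies at chr5:87885029-87894174, Csn3 at chr5:87925579-87932665, Smr3a at chr5:88002549-88008534 and Prol1 at chr5:88317312-88328814. From Csn1s1 to Jchain, 36 annotated genes fill 861.684 kb (chr5:87666208-88527891). Only 5 of the 36 had at least 1000 UMIs in each library: Odam, Smr3a, Prol1, Jchain (the joining chain of immunoglobulins, a plasma cell gene) and the long noncoding RNA BC037156, which lies between Odam and Csn3 at chr5:87908779-87914171. In both libraries 24 of the 36 genes had no UMI at all, among them the milk caseins Csn1s1, Csn2, Csn1s2a and Csn1s2b and the enamel genes Ambn and Enam. Csn3 was thus the only casein gene of the locus with transcripts in these glands. Csn3 overlaps the antisense gene 1700066N21Rik (60 UMIs in all cells) and Smr3a overlaps Gm28434 on the same strand (0 UMIs), and the counting of overlapping genes was not given in the sources used here.

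**Figure D1:**
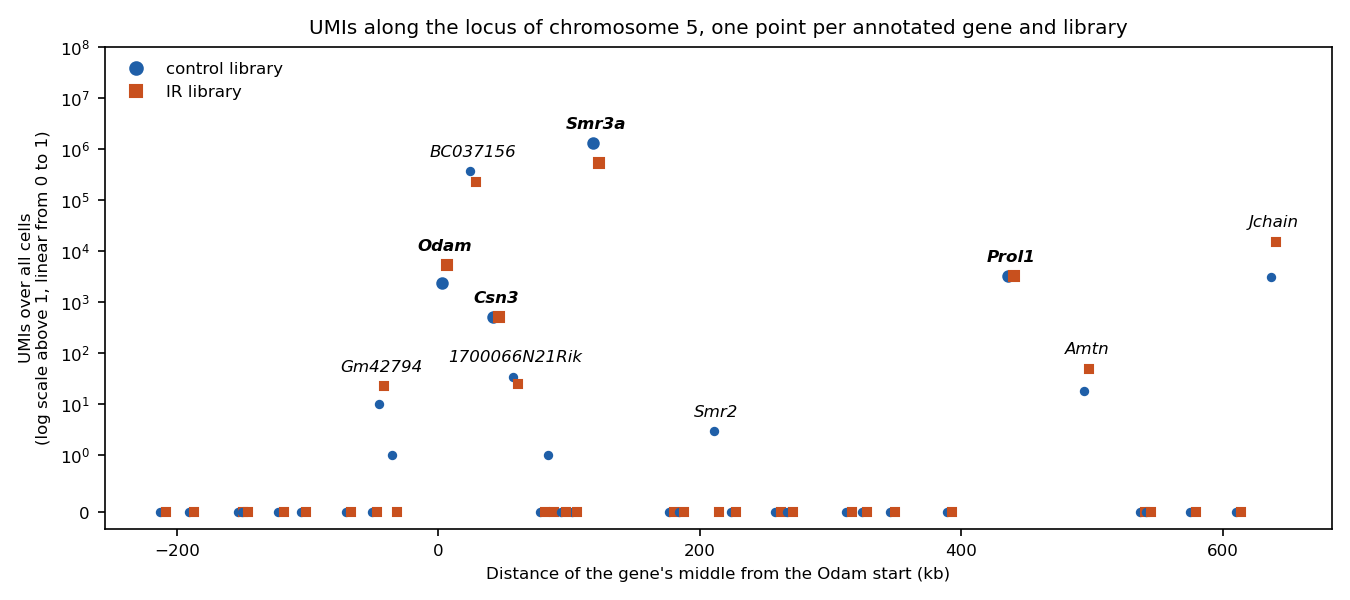
UMIs over all kept cells of each library (log scale above 1, linear from 0 to 1) for the annotated genes between Csn1s1 and Jchain, against the distance of the gene's middle from the start of Odam in kilobases, with 1 point for each gene and library (circles control, squares IR). Odam, BC037156, Smr3a, Prol1 and Jchain stand above 1000 UMIs in both libraries, Csn3 lies at 511 and 505, and most other genes lie at 0.

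Beyond Smr3a and 2 processed pseudogenes lies Smr2, which encodes a related salivary protein and lies at chr5:88086556-88109053. The 250 bases before the RefSeq starts of both are shown because the pair are near copies at this position while their UMI numbers were far apart, and those of Odam are added as the gene with the opposite difference between conditions (RefSeq, GRCm38.p6, forward strand, 5′ to 3′; capitals mark the overlapping TATATA matches that were found).
Smr3a, chr5:88002275-88002524: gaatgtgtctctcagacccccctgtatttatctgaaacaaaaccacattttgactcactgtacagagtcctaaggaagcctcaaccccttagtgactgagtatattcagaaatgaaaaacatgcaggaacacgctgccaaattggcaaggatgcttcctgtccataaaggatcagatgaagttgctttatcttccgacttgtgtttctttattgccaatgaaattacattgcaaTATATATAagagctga
Smr2, chr5:88086306-88086555: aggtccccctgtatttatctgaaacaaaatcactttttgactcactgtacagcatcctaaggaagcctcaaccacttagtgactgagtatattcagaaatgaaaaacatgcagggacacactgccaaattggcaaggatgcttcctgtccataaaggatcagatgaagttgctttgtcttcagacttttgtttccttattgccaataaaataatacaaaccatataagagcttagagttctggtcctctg
Odam, chr5:87884760-87885009: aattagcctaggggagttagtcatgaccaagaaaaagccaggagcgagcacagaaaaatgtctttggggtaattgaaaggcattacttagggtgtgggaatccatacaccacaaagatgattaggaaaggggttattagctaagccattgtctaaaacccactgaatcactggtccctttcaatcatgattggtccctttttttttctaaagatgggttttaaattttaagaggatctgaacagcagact

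Smr3a and Smr2 were identical at 214 of 250 aligned bases (85.6%), whereas the other pairs among Smr3a, Smr2, Odam and Prol1 (chr5:88317062-88317311) were identical at 52.8% to 55.6%. The letters TATATA stood at position -16 before the RefSeq start of Smr3a, overlapping with a further match, and were in none of the other 3 windows. The Smr2 window nevertheless shares the letters atataagagct near its end with Smr3a. That stretch was not among the motifs counted, so the count does not show that Smr2 lacks TATA-like letters. On the strand of the gene, TATATA was in 5.25% and TATAAA in 7.59% of all 32851 promoter windows of this length, and TATAAA was in none of the 4. The last 45 bases held either motif in 3.42% of all windows. The palindrome TTCNNNGAA bound by STAT proteins (7.02% of all windows, both strands), the steroid receptor motif AGAACA (16.1%) and the octamer ATTTGCAT (1.60%) were in none of the 4 windows. These are matches of letters, and no binding was measured. The gene coordinates given further above are those of GENCODE M21, whose starts of Smr3a and Odam lie downstream of the RefSeq starts from which positions are counted here. Csn3 had no entry in the promoter table. Over all kept cells Smr3a had 1309547 UMIs in control and 523927 in IR, whereas Smr2 had 3 and 0.

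Smr3a took up a large share of the transcripts captured from acinar cells. In control cells its level was 123338 CPM in acinar (365896 UMIs), 117420 in Etv1+ deep, 70443 in Etv1+ with MEC markers, 58371 in Etv1+ shallow, 44605 in the intercalated and 39021 CPM in the striated duct class. The counting intervals of neighbours in this order did not overlap. B-cells stood at 12653 CPM and T-cells at 9526 CPM, so that the acinar level was 9.75 times the B-cell level. Nearly every cell of every class held a Smr3a UMI, including B-cells with a mean of 35.1 UMIs per cell in control and 14.6 in IR. A share of cells with a UMI therefore says nothing about which cells make it. Control striated duct cells held a like mean of 34.3 Smr3a UMIs, and T-cells and macrophages held 32.1 and 34.2. Striated duct cells were shallow in control (median depth 721), which raises a CPM value at the same count. Their control CPM above that of B-cells thus does not show that they make Smr3a. In IR their mean was 29.9. In acinar cells there were 27.9 Smr3a UMIs for every 100 UMIs of Bpifa2 (a secreted protein of the BPI fold, an abundant acinar transcript). The same quotient was 32.9 in B-cells, 31.5 in T-cells and 31.7 in macrophages, and lower, at 22.4 and 26.7, in intercalated and striated duct cells.

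After IR the Smr3a level in CPM was lower in each of the 6 epithelial classes. It was 64511 CPM in acinar cells (177992 UMIs, IR over control 0.523, 0.520 to 0.526) and 59558 CPM in Etv1+ deep cells (0.507). Etv1+ shallow cells stood at 23563 CPM (0.404), Etv1+ with MEC markers at 46717 CPM (0.663), intercalated duct at 28496 CPM (0.639) and striated duct at 16243 CPM (0.416). The 2 duct classes were deeper in IR, with medians of 1264 and 4514.5 UMIs in intercalated and 721 and 2002 in striated duct cells. As mean UMIs per cell, Smr3a stood at 137 in control and 139 in IR intercalated duct cells. It was at 34.3 and 29.9 in striated duct cells and at 953 and 460 in acinar cells. The background level moved by a like amount, to 5848 CPM in B-cells (0.462) and 4634 CPM in T-cells (0.486). The acinar level in the IR library was 11 times that of B-cells. Per 100 Bpifa2 UMIs, Smr3a in the IR library stood at 13.4 in acinar, 14.8 in B-cells and 15 in T-cells. Intercalated and striated duct cells were at 9.20 and 4.72. Each of these was under its control value. Bpifa2 itself was at 441652 and 481912 CPM in acinar cells (1.09), and its ratio was 1.55 in intercalated and 2.35 in striated duct cells. The acinar interval is narrow because so many UMIs were counted, and it carries no spread between mice.

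Among the 3 of 4 genes with at least 100 UMIs in acinar cells, 1 (Smr3a) was lower by 1.5-fold or more and 1 (Odam) was higher. Over all 1160 genes with as many UMIs in acinar cells, 1.9% were lower and 18.4% higher by that fold (20.3% in either direction), and the median log2 ratio was 0.29, so an acinar ratio of about 1.2 lies at the middle of all genes. In Etv1+ deep cells the same 2 of 3 genes passed the fold, against 2.38% lower and 12% higher among 2815 genes (14.4% in either direction). Smr3a was lower and Odam higher by that fold in Etv1+ shallow cells as well, where 19.7% of 142 genes were lower and 8.45% higher (28.2% in either direction). In striated duct cells only Smr3a had enough UMIs and was lower, as were 51.9% of 214 genes, with 9.81% higher (61.7% in either direction). The same pair passed the fold among 3 members in B-cells, where 2.94% of 4460 genes were lower and 7% higher (9.93% in either direction), and in T-cells, where 2.34% of 7515 genes were lower and 12.2% higher (14.6% in either direction).

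**Figure D2:**
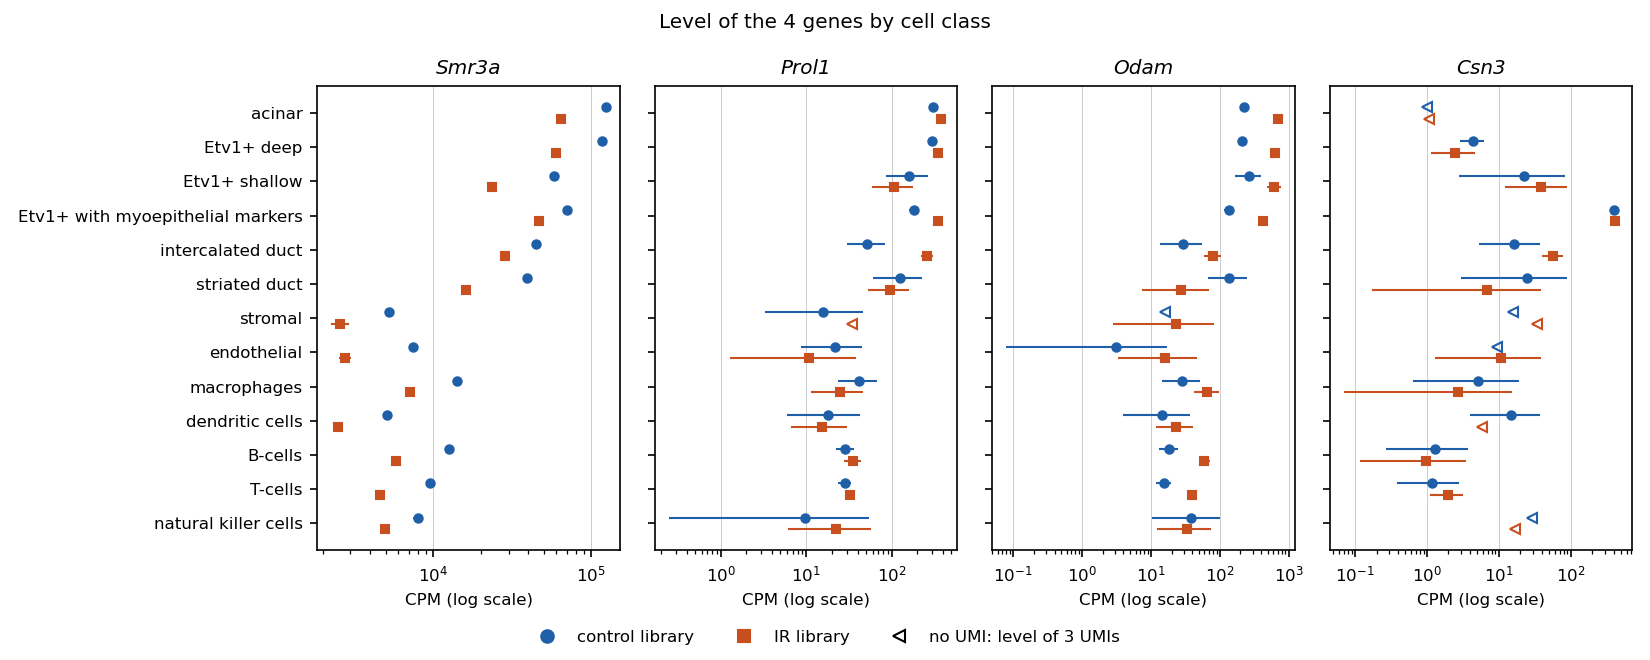
Level of each gene (CPM of summed UMIs, log axis) in each cell class, with circles for control, squares for IR and bars for the 95% counting intervals. Open triangles mark the level of 3 UMIs where a class held none. Smr3a is lower in IR in every class shown, Odam is higher in the epithelial classes except striated duct and in B-cells and T-cells, and Csn3 peaks in the Etv1+ class with myoepithelial markers at 400 and 418 CPM.

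**Figure D3:**
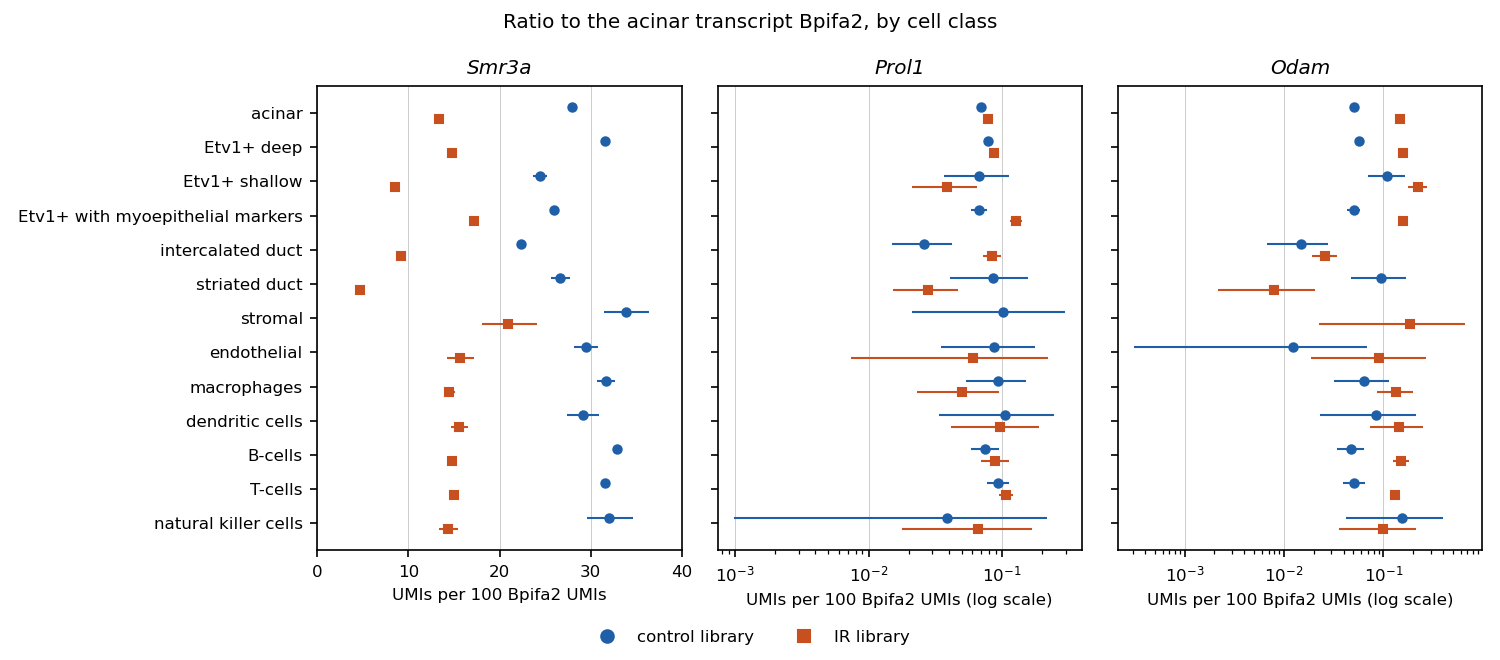
UMIs of Smr3a (linear axis), Prol1 and Odam (log axes) per 100 UMIs of Bpifa2 in each class, with circles for control, squares for IR and bars for the 95% counting intervals. For Smr3a, acinar cells, B-cells and T-cells lie within 27.9 to 32.9 in control and 13.4 to 15 in IR.

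Acinar cells differed widely from each other in Smr3a. Its share of a cell's UMIs ran from 0.0502% to 57.9% in control with a median of 6.31% (quartiles 2.23% and 15.3%), and from 0 to 37.0% in IR with a median of 2.49% (quartiles 0.359% and 8.91%). Cells with under 1% of their UMIs on Smr3a made up 59 of 384 (15.4%, exact interval 11.9% to 19.4%) in control and 154 of 387 (39.8%, 34.9% to 44.9%) in IR. For comparison, the median share in B-cells, taken as background, was 1.08% in control and 0.495% in IR. The limit of 1% thus lay just under this B-cell share in control and above it in IR. The control and IR percentages of cells under 1% are therefore not like for like. Nor need the B-cell share be the background of acinar cells, because a share depends on depth. In control, B-cells had a median of 2538 UMIs and acinar cells 5197.5, and the shallower macrophages (879 UMIs) had a median Smr3a share of 3.09%. Under 0.5% stood 34 control and 129 IR acinar cells. In Etv1+ deep cells the median was 9.28% in control and 2.74% in IR, and 30 of 182 (16.5%) against 47 of 141 cells (33.3%) were under 1%. Without the cells under 1%, the acinar ratio of IR over control was 0.680 in place of 0.523. The level among the remaining cells was therefore lower in IR too.

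**Figure D4:**
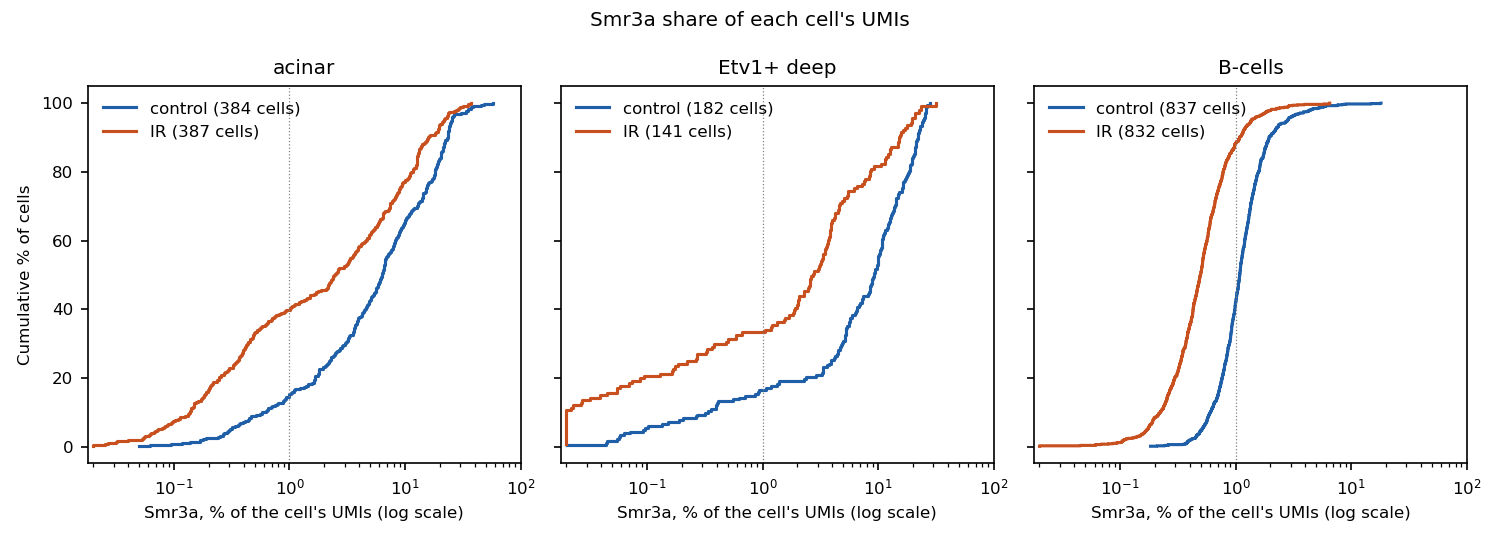
Cumulative percentage of cells against Smr3a as a percentage of each cell's UMIs (log axis, cells under 0.02% drawn at 0.02), for acinar, Etv1+ deep and B-cells, with a line for each library and a dotted line at 1%. At 1% the acinar lines stand at 15.4% of control and 39.8% of IR cells, and the B-cell lines are far steeper than the acinar ones.

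Odam went the other way. Its acinar level was 223 CPM in control (662 UMIs) and 706 CPM in IR (1948 UMIs), a ratio of 3.16 (2.90 to 3.46). Etv1+ deep cells stood at 210 and 630 CPM (3.01), Etv1+ shallow at 262 and 619 CPM (2.36) and Etv1+ with MEC markers at 136 and 428 CPM (3.14). Counts were small in the ducts: intercalated duct had 9 and 49 UMIs (29.2 and 80.0 CPM, 2.73) and striated duct 11 and 4 UMIs (137 and 27.5 CPM, 0.200, 0.0465 to 0.675). The intercalated duct ratio was below 1 under 3 of the other cell filters and clusterings (0.781 to 0.959).

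B-cells again moved with the acinar cells, at 18.1 CPM in control and 59.8 CPM in IR (3.30, 2.31 to 4.81), and T-cells stood at 15.3 and 40.1 CPM (2.62). The background of Odam in lymphocytes thus followed its acinar level. Per 100 Bpifa2 UMIs, acinar cells had 0.0505 Odam UMIs in control and 0.147 in IR, and B-cells 0.047 and 0.151.

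Odam transcripts were held by few cells. An Odam UMI was seen in 25% of control and 43.9% of IR acinar cells, against 4.78% and 11.7% of B-cells. With every cell thinned to 1000 UMIs, which left out the shallower cells, the shares were 12.0% of 366 and 28.7% of 362 acinar cells and 2.43% and 5.07% of B-cells. In control, 9 of 384 acinar cells held at least 50% of the acinar Odam UMIs, and in IR 19 of 387 did. The highest cell had 76 Odam UMIs in control and 160 in IR. Without the 10 cells richest in Odam in each library the ratio was 4.57 in place of 3.16.

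Summed over cells, Odam stood higher in acinar cells poor in Smr3a. To keep Smr3a itself out of the scale, Odam was taken as CPM of the UMIs of all other genes in bins of the Smr3a share, a split chosen after the data had been seen. In control acinar cells Odam stood at 569 CPM in the 34 cells under 0.5% Smr3a, 563 in the 25 cells at 0.5 to 1%, 367 in the 105 cells at 1 to 5%, 131 in the 159 cells at 5 to 20% and 88.4 in the 61 cells at 20% or more. In IR acinar cells the same bins held 1195, 712, 435, 461 and 521 CPM (129, 25, 86, 123 and 24 cells). The first 2 control bins had overlapping intervals (504 to 640 and 440 to 710), and each later control bin was lower. The intervals of the last 2 control bins overlapped as well (110 to 156 and 67.1 to 114). In IR the poorest bin was the highest (1128 to 1264), and the last 3 bins overlapped in their intervals. These sums rest on a minority of control cells. An Odam UMI was seen in 13 of 34, 7 of 25, 35 of 105, 31 of 159 and 10 of 61 control cells from the poorest to the richest bin, and in 72 of 129, 9 of 25, 33 of 86, 52 of 123 and 4 of 24 IR cells.

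Etv1+ deep cells showed a like order at the ends. Control cells under 0.5% Smr3a had 642 CPM of Odam on this scale (24 cells) and those at 5 to 20% had 126 (98 cells), and in IR these were 1331 (43 cells) and 111 (34 cells). Bins of fewer than 20 Etv1+ deep cells are the one at 0.5 to 1% in both libraries (6 and 4 cells) and the highest in IR (6 cells). Prol1 in acinar cells stood at 647, 436, 197, 311 and 245 CPM across the control bins and at 617, 259, 325, 219 and 604 CPM across the IR bins. The poorest bin was the highest in both libraries, but in IR its interval (570 to 667) overlapped that of the richest bin (466 to 770). The bins are fixed Smr3a shares, so the same bin holds different parts of a class in the 2 libraries, and ratios within bins are not like for like. The poorest acinar bin held 34 of 384 control and 129 of 387 IR cells, with medians of 10226 and 6116 UMIs. Within the acinar bins the IR over control ratio of Odam was 2.1, 1.26, 1.18, 3.51 and 5.89 from the poorest to the richest in Smr3a. The intervals of the 1.26 (0.873 to 1.82) and the 1.18 (0.929 to 1.51) include 1. The 5.89 rests on 58 UMIs in 10 of 61 control cells and 56 UMIs in 4 of 24 IR cells. These intervals take each UMI as independent and leave out the spread between cells, so none of these ratios is a test. Within the Etv1+ deep bins the Odam ratio was 2.07 (1.89 to 2.28), 0.174 (0.0043 to 1.02), 1.49 (1.28 to 1.73), 0.883 (0.720 to 1.08) and 1.38 (0.527 to 3.05). The intervals of the 0.174, the 0.883 and the 1.38 include 1, and the 0.883 is the bin with the most control cells.

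**Figure D5:**
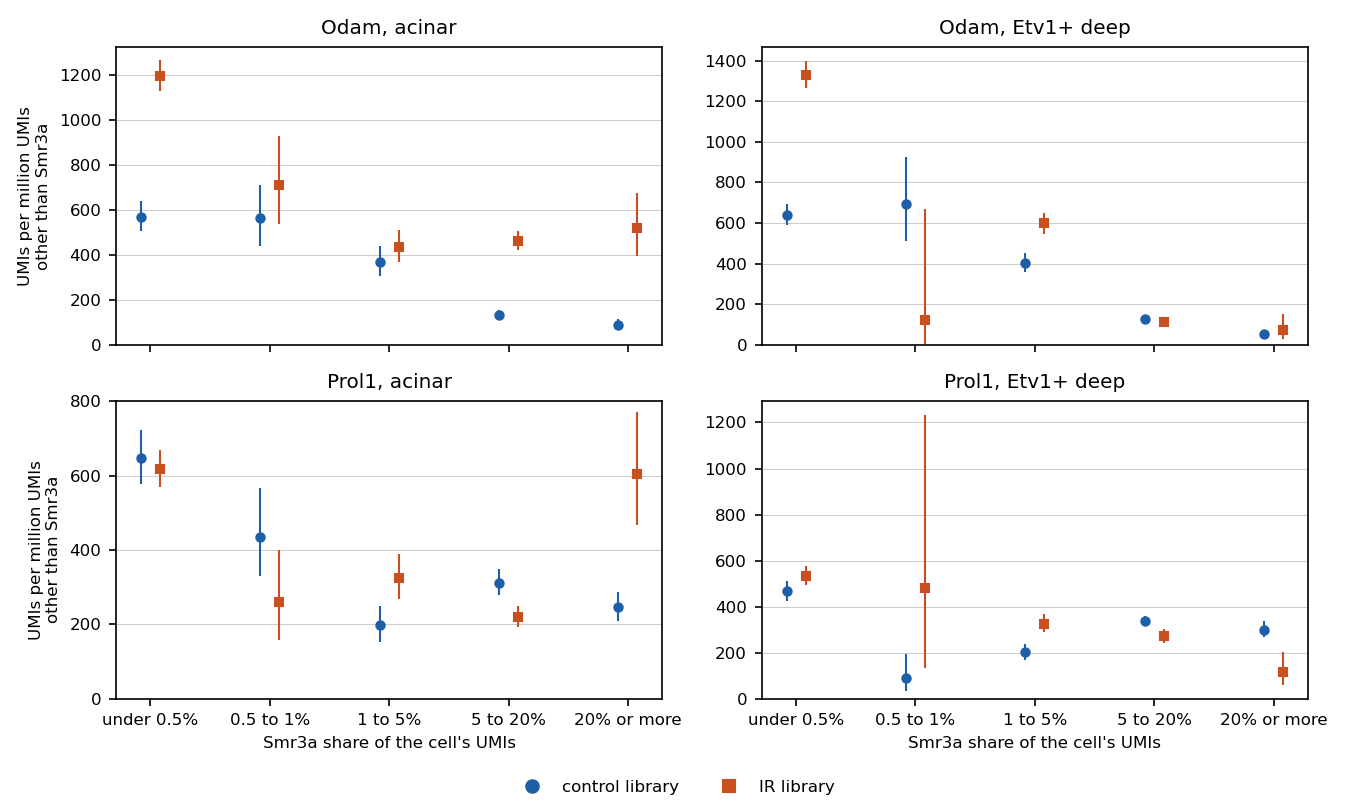
UMIs of Odam (upper panels) and Prol1 (lower panels) as CPM of the UMIs of genes other than Smr3a, in bins of the Smr3a share of a cell, for acinar and Etv1+ deep cells, with circles for control, squares for IR and bars for the 95% counting intervals. Odam in control acinar cells lies at 569 and 563 CPM in the first 2 bins and at 88.4 CPM in the last, and in IR acinar cells it runs from 1195 to a low of 435.

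Set against the cells with 5% or more, acinar cells under 1% Smr3a had 4.97 times the Odam level in control and 2.49 times in IR, and 2.12 and 2.31 times the Prol1 level. Of 889 genes with enough UMIs, 6 (0.675%) were at least 2-fold higher in the cells poor in Smr3a in both libraries, and 2 of the 6 were Odam and Prol1. The others, named after their values were seen, were Mup5 (a major urinary protein, 5.57 and 4.44), Scgb2b27 (4.08 and 2.31) and Scgb1b27 (4.24 and 3.0), both secretoglobins, and Crip1. Only Bpifb1 (0.112%) was lower to that extent. In Etv1+ deep cells 5 of 1619 genes (0.309%) were higher in both libraries, and 4 of them, Odam, Mup5, Scgb2b27 and Scgb1b27, were among the 6 of acinar cells. BC037156, which lies between Odam and Csn3, was at 1.55 and 1.22 in acinar cells and at 1.17 and 1.23 in Etv1+ deep cells. How the cells poor in Smr3a were divided between the 2 mice of each pool cannot be told apart here.

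Prol1 was close to the middle of all genes between conditions in acinar cells. It stood at 306 CPM in control (907 UMIs) and 381 CPM in IR (1050 UMIs), a ratio of 1.24 (1.14 to 1.36), beside a median log2 ratio of 0.29 over all genes, and scaled by TMM factors the ratio was 0.960. Etv1+ deep cells stood at 294 and 352 CPM (1.20), Etv1+ with MEC markers at 183 and 347 CPM (1.9, 1.59 to 2.26), Etv1+ shallow at 160 and 107 CPM (14 UMIs in each) and striated duct at 125 and 96.2 CPM (10 and 14 UMIs). B-cells were at 28.9 and 35.2 CPM (1.22, 0.863 to 1.73). In control, the acinar and Etv1+ deep levels overlapped in their counting intervals, and in IR the Etv1+ class with MEC markers overlapped them too. Prol1 was spread over more acinar cells than Odam in control, with UMIs in 48.7% of control and 53.7% of IR acinar cells (thinned, 22.4% and 23.5%), against 7.29% and 7.45% of B-cells (thinned, 2.68% and 3.34%). Of the 384 acinar cells of the control library, 187 held a Prol1 UMI, 96 an Odam UMI and 42 both. Of the 387 after IR, these were 208, 170 and 94. The cells with both were not set against the overlap that the separate counts alone would give, so they are no measure of co-expression.

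In intercalated duct cells Prol1 differed most, with 16 UMIs in 10 of 100 control cells (52.0 CPM) and 160 UMIs in 60 of 126 IR cells (261 CPM), a ratio of 5.02 (3.0 to 9.0). Of 299 genes with at least 100 UMIs in this class, 17.4% were higher and 14% lower by 1.5-fold or more (31.4% in either direction), and of the 2 members with as many UMIs Prol1 was higher and Smr3a lower. With cells thinned to 1000 UMIs, 1 of 57 control and 22 of 95 IR cells held a Prol1 UMI (1.75% and 23.2%). The class differed between libraries in other ways as well. Its summed acinar markers stood at 268418 CPM in control and 466901 CPM in IR. Per 100 Bpifa2 UMIs it had 0.0261 Prol1 UMIs in control and 0.0843 in IR, beside 0.0692 and 0.0790 in acinar cells. Its cells had a median of 1264 UMIs in control and 4514.5 in IR, and 35 control and 80 IR cells reached 2000 UMIs. Scgb1b2 and Obp1a, a secretoglobin and an odorant-binding protein named after their values were seen, had 2720 and 1849 UMIs in control and 0 in IR. Among cells with at least 2000 UMIs the quotient of Dcpp1 (a demilune and parotid protein that marks this class) to Bpifa2 had quartiles of 0.452 and 5.28 in control and 0.616 and 0.770 in IR. The Prol1 ratio was 1.51 with at least 500 genes per cell, 1.79 with no mitochondrial limit, 1.66 with the members kept among the clustering genes and 2.27 with the libraries merged without anchors. The part of cell composition in this difference was not tested.

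Csn3 had a pattern of its own. Acinar cells held none of it, 0 of 384 in control and 0 of 387 in IR, where a floor of 3 cells would be 0.781% and 0.775% and the exact upper limits are 0.956% and 0.949% of cells with a UMI. The Etv1+ class with MEC markers held 460 of the 511 Csn3 UMIs of all control cells and 433 of the 505 of all IR cells. Its levels were 400 and 418 CPM, a ratio of 1.05 (0.915 to 1.20), with UMIs in 18 of 30 control and 13 of 31 IR cells. With at least 500 genes per cell this class was made up differently and the ratio was 2.66 (38 and 135 UMIs). Over all epithelial cells Csn3 was at 45.2 CPM in control and 58.3 CPM in IR (1.29), and over all cells at 26.8 and 24.8 CPM (0.926, 0.817 to 1.05).

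Most Csn3 UMIs came from a handful of cells. It was seen in 42 control and 65 IR cells, and the 5 highest held 375 of 511 and 340 of 505 UMIs. The highest control cell had 195 Csn3 UMIs among 7591, with 12 of Acta2 (smooth muscle actin, a myoepithelial marker), 0 of Krt14 (a basal keratin), 419 of Smr3a and 3 of Odam. The highest IR cell had 131 Csn3 UMIs among 4492, with 7 of Acta2, 34 of Krt14, 35 of Smr3a and 2 of Odam. Csn3 stood at 25688 and 29163 CPM of these cells. Among the 8 cells with the most Csn3 in each library, 1 control and 3 IR cells had no Acta2 UMI, and 1 of these IR cells had no Krt14 UMI either. Whether each is 1 cell or a droplet with 2 cells was not tested.

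Intercalated duct cells had 5 Csn3 UMIs in 2 of 100 control cells (16.2 CPM) and 35 in 22 of 126 IR cells (57.1 CPM), a ratio of 3.52 (1.37 to 11.5). All 5 control UMIs were in cells with under 2000 UMIs and all 35 IR UMIs in cells with at least 2000. Other cell filters or clusterings moved up to 115 control UMIs into this class, and the ratio then ran from 0.830 to 3.96. Etv1+ deep cells had 28 and 9 UMIs (4.37 and 2.50 CPM, 0.572, 0.238 to 1.25). B-cells had 3 and 2 UMIs in 837 and 832 cells, T-cells 5 and 16, and all 4 UMIs of control dendritic cells lay in 1 cell. Csn3 therefore had few UMIs in lymphocytes, but it had only 511 and 505 UMIs in all cells. The epithelial classes held 97.3% of its UMIs in control and 95.6% in IR, against 94.2% and 89.8% for Odam, 93.3% and 88.5% for Smr3a and 92.7% and 88.2% for Prol1. The make-up of the libraries differed as well, with 851 of 3378 control and 856 of 5286 IR cells in the epithelial classes. The part of this in the lower IR percentages was not tested. Amtn, the enamel gene beyond Prol1, was also seen mostly in these classes, with 12 and 26 UMIs in Etv1+ with MEC markers and 0 and 20 in intercalated duct of 18 and 50 in all cells.

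BC037156, named after its values were seen, was also captured in large numbers. It stood at 26894 CPM in control and 21922 CPM in IR acinar cells (0.815) and at 32592 and 25220 CPM in Etv1+ deep cells (0.774). B-cells were at 0.746. In these classes the direction was that of Smr3a, whereas in striated duct cells BC037156 was higher in IR (10455 and 23124 CPM, 2.21, 2.05 to 2.39). Bpifa2 (2.35), Amy1 (1.40), Pip (1.70) and Dcpp1 (5.52) were higher in that class too, whereas Car6 (0.669) and Klk1 (0.209) were lower. Per 100 Bpifa2 UMIs, BC037156 stood at 7.15 in control and 6.72 in IR striated duct cells. Among the 12 other genes of the locus and family list, 10 were in the files, and 9 of these had no UMI in acinar cells of either library.

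A list of 7 related genes had almost no UMIs in acinar cells. The 5 phosphoprotein genes of bone and dentin, Spp1, Ibsp, Dmp1, Dspp and Mepe, had none there, and Sparc and Sparcl1, matrix genes of other tissues, had 1 UMI in each library. The kinases of the secretory pathway, of which Fam20c phosphorylates caseins and most secreted phosphoproteins, were low. In Etv1+ deep cells Fam20a and Fam20c had enough UMIs, with ratios of 1.13 and 1.08 (Fam20c 26.2 and 28.3 CPM), and none of the 3 did in acinar cells. Of 14 genes of mucin-type O-glycosylation, 5 could be compared in Etv1+ deep cells. Galnt3 (1.52, 1.21 to 1.91), which adds the first sugar, and Gcnt1 (1.53, 1.27 to 1.83), which branches the chain, were just past 1.5-fold higher. None was lower by that fold, beside 12% higher and 2.38% lower among all genes of this class. Galnt1 was at 1.11, C1galt1 at 1.03 and Galnt6 at 0.726 (0.545 to 0.958). Only Galnt1 could be compared in acinar cells, at 1.38.

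Among 8 regulators known from milk protein and androgen-dependent salivary genes, only Elf5, an ETS factor of secretory epithelia, had enough UMIs in acinar cells, at 40.1 and 55.1 CPM (1.37). In Etv1+ deep cells Prlr (the prolactin receptor), Elf5, Nr3c1 (the glucocorticoid receptor) and Nfib had ratios of 0.775 to 1.17, and none passed the fold. Of 6 other secretory genes, 3 were lower by at least 1.5-fold in the acinar class and none was higher, beside 1.9% lower among all genes. Amy1 (amylase) was at 0.874 there and at 0.910 in B-cells, Pip at 1.04 and 0.901, and Car6 (a secreted carbonic anhydrase) at 0.629 and 0.654. The duct genes Dcpp1 (1792 and 1113 CPM, 0.621) and Klk1 (35.4 and 13.0 CPM, 0.369) were under their B-cell levels of 3187 and 2200 CPM (0.691) and 129 and 39.6 CPM (0.307), so their acinar values are no more than background.

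Across the 10 classes with at least 40 control cells, the levels of Smr3a, Prol1 and Odam ran together. On the scale of log2(CPM + 10), Pearson's r in control was 0.957 between Smr3a and Prol1, 0.898 between Smr3a and Odam and 0.958 between Prol1 and Odam. In IR these were 0.978, 0.844 and 0.779. Csn3 was at 0.135 to 0.340 with the others in control and 0.121 to 0.270 in IR. The Etv1+ class with MEC markers, which held most Csn3 UMIs, had fewer than 40 cells and was not among the 10 classes. The values for Csn3 therefore leave out its main class. The classes share 1 library and its background, so r is a description. Over 7842 genes, those most like Smr3a in control were Pip (0.997), 2310057J18Rik, Bpifa2, Amy1 and Chia1, of which Pip and 2310057J18Rik were also among the 5 highest in IR. Prol1 ran closest with Scgb2b27, Car6, Ggh, Cst10 and Scgb1b27, and Car6 stayed among the 5 in IR. Odam ran closest with Prol1, Fkbp11, Cldn22, Scgb2b27 and Car6, none of which was among its 5 in IR. Csn3 was nearest to Gmppb, Acta2, Ehf, Echdc2 and BC064078, again with none in IR, and its counts are too sparse for this order to be read.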

How the data were processed

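The authors made the libraries with a droplet kit and, per the labels, processed them with Cell Ranger 3.0.1 (build mm10) and Seurat 3. The deposited files hold raw UMI counts per gene and barcode, with no normalization. As in the authors' methods, cells with at least 200 genes and at most 5% mitochondrial UMIs were kept, integrated with anchors and clustered (Seurat 5.3.0, R 4.3.3, 2000 variable genes, 30 components, resolution 0.4), here without the 4 members and the other genes of the locus list. The members, marker and gene lists and comparisons were chosen with earlier results of these data known.

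Clusters were named where at least 3 listed markers passed, apart from the parts of the Etv1+ cluster and the shallow clusters left unnamed, as given above. UMI counts were summed per class and library and divided by the total (CPM). Ratios carry exact conditional binomial intervals, levels exact Poisson and shares exact Clopper-Pearson intervals at 95% (scipy 1.17.1), which cover counting error only. With 1 library per condition no test was possible. A gene was counted for a class where both libraries together gave it 100 UMIs or more. On simulated counts for acinar cells (1160 genes, 200 changed), 95.95% of intervals held the true ratio, and for intercalated duct cells (299 genes) 97.32%. These counts were Poisson draws of class sums, the model that the intervals assume, with no spread between cells or mice. They therefore check the calculation only and cannot show how well the intervals hold for genes concentrated in few cells. Scrublet (scanpy 1.11.5) marked too few IR cells to be used, so doublets stayed in, and the 6% of cells with the highest scores were left out as an alternative. Other alternatives changed the cell filter, clustering and scaling (edgeR 4.0.16 TMM factors). Named genes were the members, the listed genes and the 5 genes most like each member. Genes named for other reasons are marked where they stand.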

Additional observations from a re-analysis of the deposited data

Results flagged for a closer look

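Odam differed between classes in the direction of its IR over control ratio. It was above 1, with intervals that exclude 1, in acinar (3.16), Etv1+ deep (3.01), Etv1+ shallow (2.36), intercalated duct (2.73), macrophages (2.29), B-cells (3.30) and T-cells (2.62), and below 1 in striated duct (0.200). The striated duct value rests on 11 control and 4 IR UMIs, and the difference between classes was not tested. That class also differed between libraries, with medians of 721 and 2002 UMIs per cell and red blood cell markers at 31764 and 866 CPM in control and IR. Its IR Odam level of 27.5 CPM was under the 59.8 CPM of IR B-cells, with overlapping intervals.

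Csn3 was higher in IR in intercalated duct cells (3.52) and had 4 UMIs in control and 0 in IR dendritic cells, a ratio of 0. All 4 lay in 1 cell, and this difference between classes was not tested.

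Odam also appeared in the barcodes with under 200 genes, which no comparison used. In 649 such IR barcodes it stood at 115 CPM (93.1 to 140), above the 44.3 CPM (34.7 to 55.8) of 912 control barcodes.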

How the results depend on the processing

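Of 58 alternative values for the acinar ratios of Smr3a, Prol1 and Odam, the intercalated duct ratio of Csn3 and the shares of genes past 1.5-fold, 29 stayed within the counting interval (for shares of genes, within 1.5 times), 23 moved out of it in the same direction and 6 reversed. Depth, 1 library a condition and cells rebuilt into classes limit all of them, and the causes of these moves were not tested. Smr3a in acinar cells (0.523) stayed below 1 throughout. It was 0.536 with up to 10% mitochondrial UMIs, 0.528 with no such limit, 0.484 with at least 500 genes per cell, 0.526 without the highest Scrublet scores, 0.535 with libraries merged without anchors, 0.429 without abundant genes in the scale, 0.403 with TMM factors and 0.483 as mean UMIs per cell. Chosen after the data were seen, it was 0.611 as the mean of the cells' own shares, 0.502 without the 10 cells richest in the gene and 0.680 without cells under 1% Smr3a.

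Prol1 in acinar cells (1.24) was 1.11 with 500 genes, 1.02 without abundant genes, 0.960 with TMM factors, 1.58 by the cells' own shares and 1.07 without cells under 1% Smr3a. Odam in acinar cells (3.16) was 2.59 without abundant genes, 2.44 with TMM factors, 2.29 by the cells' own shares and 4.57 without its 10 richest cells. Csn3 in intercalated duct cells (3.52) was 0.985 with no mitochondrial limit, 0.830 with 500 genes, 0.947 with merged libraries, 0.498 by the cells' own shares and 0 among cells under 2000 UMIs, and had no control UMI among deeper cells.

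With a minimum of 20 UMIs per gene, the share past 1.5-fold was 34.5% in acinar (20.3%), 25.1% in Etv1+ deep (14.4%), 19.7% in B-cells (9.93%) and 23.6% in T-cells (14.6%). Of 174 values for other results 109 stayed, 60 moved and 5 reversed: Smr3a in intercalated duct to 1.01 and Prol1 in Etv1+ deep to 0.869 as mean UMIs per cell, and Odam in intercalated duct to 0.959 with no mitochondrial limit, 0.831 with 500 genes and 0.781 with merged libraries. No Etv1+ class with MEC markers formed with 10% or no mitochondrial limit, merged libraries or the members kept, and no striated duct class formed with 500 genes. No paired analysis was possible because each condition is 1 library.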
